A study of Homo sapiens with 12 samples.

Results

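The genes described here were 10 genes whose products hold endogenous retroviral repeats silent: TRIM28, SETDB1, ATF7IP, MPHOSPH8, MORC2, DNMT3A, DNMT3B, DNMT1, UHRF1 and HELLS. They were found by symbol, as named regulators of this process, and no threshold on a measured value defined them, but they were proposed with earlier results of these data known. All 10 were found among the 26210 genes of the expression table, and all 10 were among the 14679 genes tested, which reached 1 FPKM or more in at least 2 of the 12 libraries. FPKM (fragments scaled to transcript length and to the library's mapped fragments) is a level per transcript length, so levels of different genes can be set side by side.

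Total RNA had been sequenced from established human lymphoma and leukaemia cell lines. KM-H2, L1236 and L428 are lines of classical Hodgkin lymphoma (cHL), a tumour whose Hodgkin/Reed-Sternberg cells derive from B cells but have lost most of the B-cell programme. The controls were Reh, a B-cell precursor leukaemia line, and Namalwa, a Burkitt lymphoma line, and Reh was also measured after treatment with 2 ng/ml PMA, a phorbol ester that activates protein kinase C. Each of the 6 groups had 2 libraries, called library 0 and library 1 after the table's column headings. No source says that the libraries of a group were separate cultures, so p-values measure only the spread between these libraries, which may be technical. Precursor leukaemia and Burkitt lymphoma were each represented by 1 line. The cHL lines were grown in IMDM medium and Reh and Namalwa in RPMI medium, so medium and class cannot be told apart. The study describes more than one duration of PMA treatment, and which of them these libraries had is not stated in the labels.

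Silencing of retroviral repeats runs along linked routes. KRAB zinc finger proteins recognise repeat sequences and bring TRIM28 (KAP1), a scaffold to which the histone methyltransferase SETDB1 binds. SETDB1 writes trimethylation of histone H3 lysine 9, and ATF7IP binds and stabilises it. MPHOSPH8 (MPP8), a reader of that mark, belongs to the HUSH complex, for which the ATPase MORC2 compacts chromatin. DNA methylation is set by DNMT3A and DNMT3B and copied at replication by DNMT1, which UHRF1 recruits to hemimethylated DNA. HELLS (LSH) is a chromatin remodeller needed for methylation of repeats.

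The libraries were checked against marker lists by their summed levels. Summed FPKM of 5 Hodgkin/Reed-Sternberg markers, among them TNFRSF8 (CD30), was 60.9 to 872 in the cHL libraries and 0.29 to 1.18 in untreated Reh and Namalwa. In the same libraries 6 B-lineage markers summed to 2.55 to 34.7 and 901 to 1377 respectively. Single markers did not all follow. CCL22 was at 0 in both KM-H2 libraries and at 0.253 to 0.334 FPKM in Namalwa, and CSF1R in L1236 (0.246 and 0.463 FPKM) overlapped Reh (0.202 and 0.285 FPKM). Of 4 B-precursor markers, which summed to 605 to 647 in Reh and 115 to 124 in Namalwa, VPREB1 was at 0 in Reh and at 7.89 and 11.4 FPKM in Namalwa. Markers of T cells, myeloid cells and fibroblasts each summed to at most 6.46 in every library. The libraries of a group correlated at 0.969 to 0.985 in Namalwa, Reh and PMA-treated Reh, but at 0.906 to 0.922 in the cHL lines. In these lines small nucleolar RNA genes, RMRP and RPPH1 took 38.9% to 60.1% of summed FPKM in library 1 against 23.0% to 26.9% in library 0. For the 10 silencing genes, results that rest on the cHL lines are therefore also given for each library set where that changed a call, which was not computed for the other listed genes. The number of reads in each library is unknown, since the table holds no counts and the steps between its low values did not give them.

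Across the 10 genes, 6 were lower in the cHL lines than in the untreated controls and none was higher, when the mean of the 3 cHL lines was set against the mean of Reh and Namalwa (limma, adjusted p under 0.05). Of all genes tested, 25.8% were called lower and 29.6% higher in this comparison. At an unadjusted p under 0.05, 8 of the 10 were lower and 0 higher, against 28.3% and 31.9% of all genes tested. The median log2 difference was -0.65 over the 10 genes and 0.02 over all genes tested. The genes called lower were UHRF1, DNMT3B, DNMT3A, SETDB1, MORC2 and TRIM28. In 3 of these, UHRF1, DNMT3B and SETDB1, all 6 cHL libraries lay below all 4 control libraries, as they did for 8.06% of all genes tested, and no member lay wholly above, against 9.5% of all genes.

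These calls describe the particular lines and not classes of tumour. With each line taken as 1 value, 3 lines against 2, none of the 10 genes passed limma's test at adjusted p under 0.05, 3 had an unadjusted p under 0.05, and 80 genes passed in the whole table. In the exact two-sided permutation test of 3 lines against 2, which cannot go below p = 0.1, this smallest value was reached by UHRF1, DNMT3B, SETDB1 and DNMT1. Reaching it means only that the line means of the classes did not overlap. The share of all genes that reached it was not computed.

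**Figure D1:**
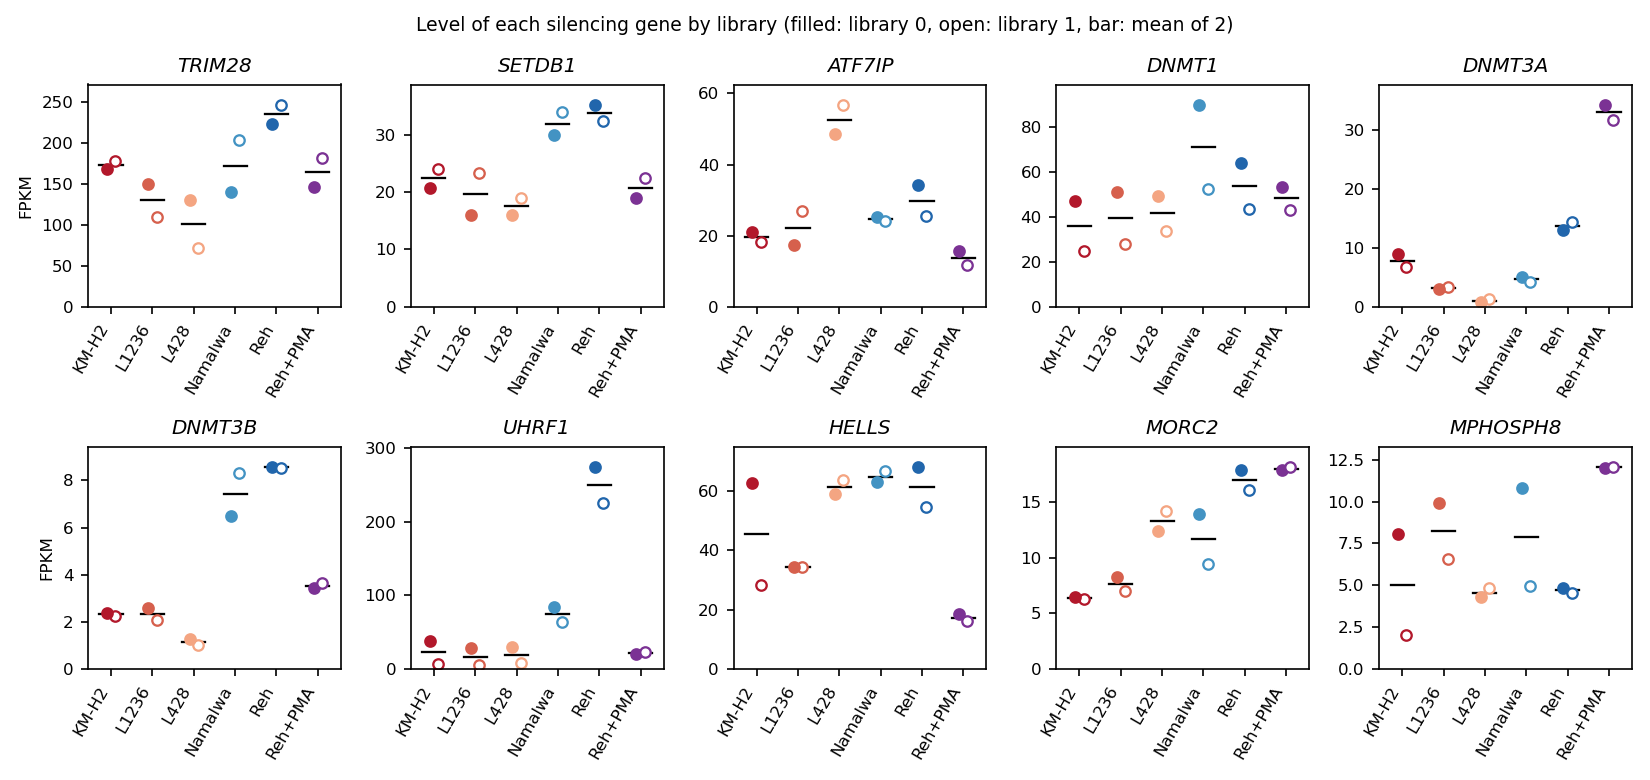
FPKM of the 10 silencing genes (linear axis from 0, 1 panel per gene) in each of the 12 libraries, by cell line and treatment, with library 0 filled, library 1 open and a bar at the mean of the 2 libraries. UHRF1 spans 4.84 to 38.0 FPKM in the cHL lines and 63.8 to 274 FPKM in untreated Namalwa and Reh, and DNMT3B at most 2.58 FPKM against at least 6.51 FPKM.

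TRIM28, the scaffold of the KRAB zinc finger route, was the most abundant member in every group except untreated Reh, where UHRF1 reached a similar level. TRIM28 stood at 168 and 179 FPKM in the libraries of KM-H2, 150 and 110 FPKM in L1236, 131 and 72.3 FPKM in L428, 140 and 204 FPKM in Namalwa, and 224 and 247 FPKM in Reh. Reh was highest, L428 was lowest by its mean, and KM-H2 lay within the range of the Namalwa libraries. TRIM28 was 1.53-fold lower in the cHL lines together (log2 difference -0.62 ± 0.21 (SE), adjusted p = 0.0306). Among the single lines only L428 passed (log2 difference -1.03 ± 0.28, adjusted p = 0.0141), and differences among the cHL lines were not called. The call for the 3 lines together held in only 6 of 12 refits that each left out 1 library, and it was lost after quantile normalisation (adjusted p = 0.078) and with library 0 alone from the cHL lines (-0.42, adjusted p = 0.125). The call for L428 was also lost with its library 0 alone (-0.60, adjusted p = 0.145).

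SETDB1, the H3K9 methyltransferase of this route, was lower in all 3 cHL lines. Its levels were 20.8 and 24.1 FPKM in KM-H2, 16.1 and 23.4 FPKM in L1236, 16.1 and 19.1 FPKM in L428, 29.9 and 34.1 FPKM in Namalwa and 35.3 and 32.5 FPKM in Reh. No cHL library reached the lowest control library, and Namalwa and Reh overlapped. SETDB1 was 1.64-fold lower in the cHL lines together (log2 difference -0.71 ± 0.14, adjusted p = 0.00208), a call kept in all 12 refits without 1 library. The line values were -0.54 in KM-H2 (adjusted p = 0.0409), -0.73 in L1236 (adjusted p = 0.011) and -0.87 in L428 (adjusted p = 0.00439), and these lines did not differ detectably from each other. The KM-H2 call was kept in 4 of the 12 refits, and with library 1 alone from the cHL lines neither KM-H2 (adjusted p = 0.0928) nor L1236 (adjusted p = 0.0757) passed.

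ATF7IP, the partner of SETDB1, differed among the cHL lines instead. Its levels were 21.1 and 18.1 FPKM in KM-H2, 17.3 and 27.0 FPKM in L1236, 48.5 and 56.8 FPKM in L428, 25.2 and 24.0 FPKM in Namalwa and 34.1 and 25.5 FPKM in Reh. Both L428 libraries exceeded every other library in the table, whereas the L1236 libraries spanned KM-H2 and Namalwa. The 3 cHL lines differed from each other (moderated F = 17.7, adjusted p = 0.0029), and L428 was 1.92-fold above the controls (log2 difference 0.94 ± 0.22, adjusted p = 0.00719). With library 0 alone from the cHL lines the L428 difference was 0.83 (adjusted p = 0.0518). The cHL lines together showed no detectable difference (0.06, 95% interval -0.31 to 0.44, adjusted p = 0.762).

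MPHOSPH8, the H3K9 methylation reader of HUSH, had duplicate libraries that lay far apart in KM-H2 and Namalwa. It measured 8.07 and 2.00 FPKM in KM-H2, 9.93 and 6.58 FPKM in L1236, 4.31 and 4.81 FPKM in L428, 10.8 and 4.97 FPKM in Namalwa and 4.85 and 4.53 FPKM in Reh. These ranges overlapped across the classes, and the KM-H2 pair alone covered every L428 and Reh library. No comparison among the untreated lines was called in the fit of all libraries. The difference between the cHL lines and the controls was -0.11 with a 95% interval of -0.82 to 0.60 (limma, adjusted p = 0.79). In KM-H2 the result depended on which library was kept. Its log2 difference from the controls was -0.41 with both libraries, -1.20 without library 0 and 0.39 without library 1.

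MORC2, the ATPase that acts with HUSH, was called lower in KM-H2 and L1236 and not in L428. It measured 6.45 and 6.32 FPKM in KM-H2, 8.25 and 7.01 FPKM in L1236, 12.4 and 14.2 FPKM in L428, 13.9 and 9.43 FPKM in Namalwa and 17.9 and 16.1 FPKM in Reh. L428 overlapped Namalwa, and Reh was above all other untreated lines. The log2 difference from the controls was -1.02 ± 0.18 in KM-H2 (adjusted p = 0.00143) and -0.80 ± 0.18 in L1236 (adjusted p = 0.00583), against -0.07 in L428 (adjusted p = 0.794). The test of differences among the 3 lines gave F = 11.4 (adjusted p = 0.0098), and it was lost within each library set of the cHL lines (adjusted p = 0.159 for library 0 and 0.0722 for library 1). The L1236 call was lost with library 0 alone (adjusted p = 0.0727). MORC2 overlaps MORC2-AS1 on the opposite strand, and how the counting used strand is not given in the sources used here, so reads from this pair may not have been separated.

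DNMT3A, a de novo methyltransferase, had the largest F of the 10 genes among the cHL lines. It measured 8.93 and 6.72 FPKM in KM-H2, 2.98 and 3.30 FPKM in L1236, 0.844 and 1.25 FPKM in L428, 5.07 and 4.22 FPKM in Namalwa and 12.9 and 14.4 FPKM in Reh. The order from the top was Reh, KM-H2, Namalwa, L1236 and L428, and no neighbouring lines in this order overlapped. DNMT3A differed among the cHL lines (F = 51.7, adjusted p = 1.0e-04) and between the controls, where Namalwa was 2.60-fold below Reh (log2 difference -1.38 ± 0.21, adjusted p = 9.92e-04). Against the control mean it was 4.45-fold lower in L428 (-2.15, adjusted p = 1.33e-05) and lower in L1236 (-1.13, adjusted p = 7.6e-04), whereas KM-H2 gave -0.05 ± 0.18 (adjusted p = 0.848). The cHL lines together were lower (-1.11, adjusted p = 1.04e-04), although KM-H2 on its own was not called.

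DNMT3B, the other de novo enzyme, was lower in each cHL line. Its levels were 2.39 and 2.24 FPKM in KM-H2, 2.58 and 2.08 FPKM in L1236, 1.27 and 1.01 FPKM in L428, 6.51 and 8.30 FPKM in Namalwa and 8.57 and 8.54 FPKM in Reh. KM-H2 and L1236 overlapped, L428 lay below them, and the control libraries were all above. DNMT3B was 3.12-fold lower in the cHL lines together (log2 difference -1.64 ± 0.12, adjusted p = 4.72e-06). It passed in every refit without 1 library, with a largest adjusted p of 7.6e-05. The difference from the controls was -1.43 in both KM-H2 (adjusted p = 1.02e-04) and L1236 (adjusted p = 1.05e-04) and -2.07 in L428 (adjusted p = 1.02e-05). Differences among the cHL lines were called (F = 7.46, adjusted p = 0.028) but not within library 0 (adjusted p = 0.116) or library 1 alone (adjusted p = 0.0842).

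DNMT1, the maintenance methyltransferase, passed in no comparison of the fit without a block on library number. It measured 47.3 and 25.0 FPKM in KM-H2, 51.3 and 28.1 FPKM in L1236, 49.5 and 33.7 FPKM in L428, 90.1 and 52.7 FPKM in Namalwa and 64.1 and 43.4 FPKM in Reh. Library 0 was the higher of the pair in 6 of 6 groups, PMA-treated Reh included. The difference between the cHL lines and the controls was -0.67 with a 95% interval of -1.28 to -0.05 (adjusted p = 0.0632). With library 0 alone from the cHL lines it was -0.29 (adjusted p = 0.405), and with library 1 alone -1.04 (adjusted p = 0.0265), but these refits set 1 library number of the cHL lines against both numbers of the controls. Within each library number every cHL library lay below Namalwa and Reh, at 47.3 to 51.3 FPKM against 64.1 and 90.1 FPKM for library 0 and at 25.0 to 33.7 FPKM against 43.4 and 52.7 FPKM for library 1. With library number as a block DNMT1 passed in all 4 comparisons of cHL lines with the controls. No label says that a library number marks a shared batch, and without this matching the cHL and control libraries overlapped. The share of all genes that separate within each library number was not computed.

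UHRF1, which directs DNMT1 to newly replicated DNA, showed the largest differences of the 10 genes between cHL and control lines. It measured 38.0 and 7.02 FPKM in KM-H2, 29.0 and 4.84 FPKM in L1236, 30.2 and 7.51 FPKM in L428, 84.4 and 63.8 FPKM in Namalwa and 274 and 226 FPKM in Reh. Every cHL library was below Namalwa, and Reh was above all other libraries. The cHL lines together were 8.73-fold lower (log2 difference -3.13 ± 0.59, adjusted p = 0.00166). Within the cHL lines, however, library 0 exceeded library 1 by 2.28 in KM-H2, 2.36 in L1236 and 1.87 in L428 on the log2 scale, larger than at least 97.5% of genes in each pair. With library 0 alone from these lines the difference from the controls was -2.04 (adjusted p = 6.44e-04), and with library 1 alone it was -4.21 (adjusted p = 7.1e-05). The direction was thus the same in both library sets, while the size depended on the set. For the single lines UHRF1 gave -2.95 in KM-H2 (adjusted p = 0.013), -3.37 in L1236 (adjusted p = 0.00709) and -3.07 in L428 (adjusted p = 0.011), and each call was lost when only that line's library 1 was left out, with differences of -1.80, -2.19 and -2.13 and adjusted p = 0.143, 0.0834 and 0.121 in turn. The same differences passed when library 1 was left out of all 3 cHL lines, with adjusted p = 0.0045, 0.00253 and 0.00274 in turn. Namalwa was lower than Reh by 1.75 on the log2 scale, which did not pass (adjusted p = 0.218).

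**Figure D2:**
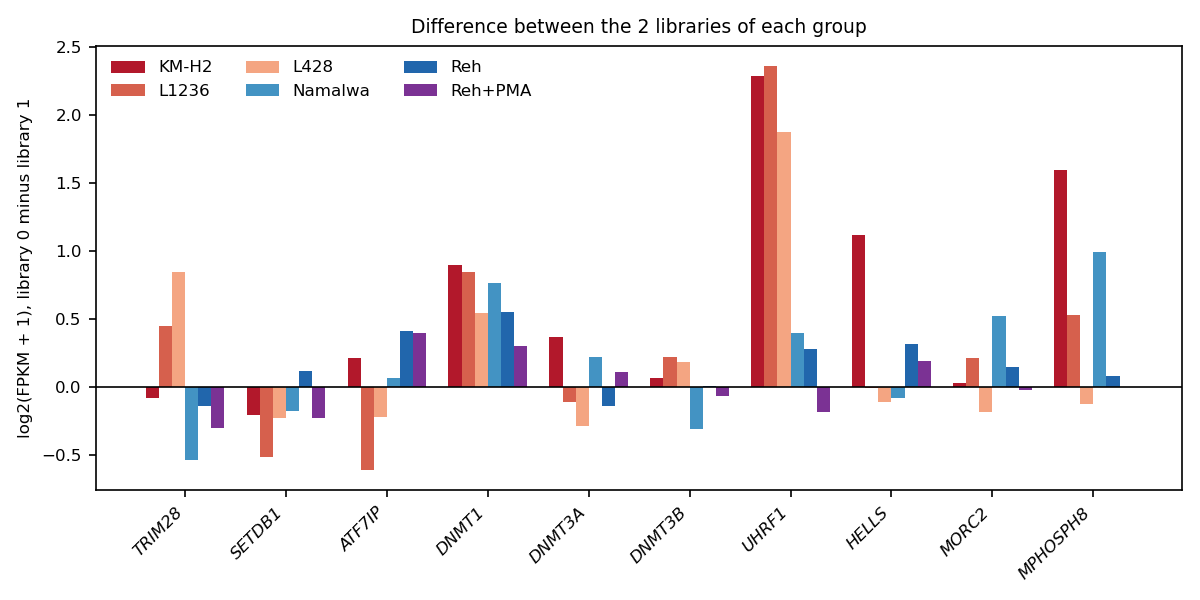
Bars give library 0 minus library 1 of each group for the 10 silencing genes, on the log2(FPKM + 1) scale. UHRF1 stands at 2.28, 2.36 and 1.87 in KM-H2, L1236 and L428 and between -0.19 and 0.40 in the other groups.

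HELLS, the remodeller, measured 62.8 and 28.4 FPKM in KM-H2, 34.3 and 34.5 FPKM in L1236, 59.1 and 63.9 FPKM in L428, 63.0 and 66.9 FPKM in Namalwa and 68.2 and 54.6 FPKM in Reh. The L1236 libraries lay close together and below every L428 and control library, whereas the KM-H2 pair reached from below L1236 to just under Namalwa. Only L1236 was called (log2 difference -0.85 ± 0.27, adjusted p = 0.0304), and this call was kept in 7 of 12 refits without 1 library and lost after quantile normalisation (adjusted p = 0.0561). The cHL lines together gave -0.48 (adjusted p = 0.071), with library 0 alone -0.32 (adjusted p = 0.0973), and with library 1 alone -0.65 (adjusted p = 0.0117). In KM-H2 the difference rested on library 1, with -0.0034 for library 0 alone (adjusted p = 0.998) and -1.12 for library 1 alone (adjusted p = 0.00984). The test of differences among the cHL lines gave adjusted p = 0.0752 with library 0 alone and 0.0354 with library 1 alone.

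Line by line, the 10 genes gave 4 calls in KM-H2, all lower, 6 in L1236, all lower, and 6 in L428, of which 5 were lower and 1, ATF7IP, higher. Of all genes tested, 22.9% were lower and 24.2% higher in KM-H2, 22.5% and 22.9% in L1236, and 23.2% and 23.7% in L428. The 3 comparisons share their control libraries. UHRF1, DNMT3B and SETDB1 were lower in each line, MORC2 in KM-H2 and L1236, DNMT3A in L1236 and L428, HELLS in L1236 and TRIM28 in L428. The number of members called depended on the library kept. When a line's own library 0 was left out, it rose in KM-H2, fell in L1236 and did not change in L428. Leaving out a line's own library 1 reduced the number of members called from 4 to 2 in KM-H2, from 6 to 3 in L1236 and from 6 to 3 in L428, while calls over all genes fell from 6920 to 5225, from 6662 to 4466 and from 6882 to 4817. Differences among the 3 cHL lines were called for 4 of the 10 genes, DNMT3A, ATF7IP, MORC2 and DNMT3B, and for 51.4% of all genes tested, and for 2 members without library 1 of L428. Between the controls only DNMT3A was called, lower in Namalwa, where 14.7% of all genes tested were lower and 10.3% higher, and 2 of the 10 genes had an unadjusted p under 0.05 in that direction and 0 in the other, against 19.5% and 15.1% of all genes. Without library 0 of Namalwa 2 members were called.

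**Figure D3:**
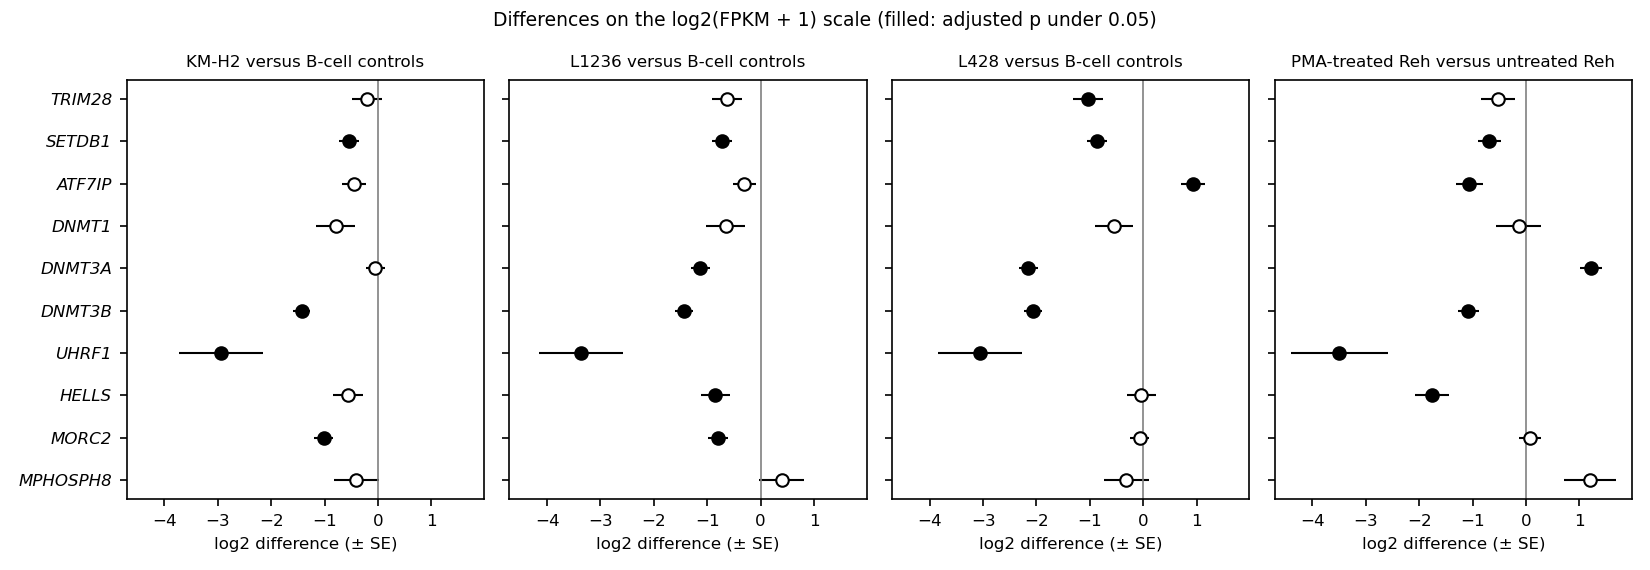
Log2 difference, on the log2(FPKM + 1) scale, of each silencing gene in KM-H2, L1236 and L428 against the untreated controls and in PMA-treated against untreated Reh, with bars of 1 SE from limma and filled points at adjusted p under 0.05. UHRF1 lies lowest in all 4 panels, at -2.95, -3.37, -3.07 and -3.49, while DNMT3A lies at -2.15 in L428 and at 1.22 in PMA-treated Reh.

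In PMA-treated Reh 6 of the 10 genes differed from untreated Reh, with UHRF1, HELLS, DNMT3B, ATF7IP and SETDB1 lower and DNMT3A higher. Of all genes tested, 17.2% were lower and 14.7% higher. The median difference was -0.60 over the 10 genes and -0.03 over all genes tested. The number of members called fell to 3 without library 0 of untreated Reh or library 1 of treated Reh and to 4 without either of the other Reh libraries, while calls over all genes fell from 4675 to between 2241 and 3017 in these refits. EGR1, an immediate early gene that phorbol esters induce, measured 0.138 and 0.0349 FPKM before and 62.1 and 76.2 FPKM after treatment, whereas NFKBIA, another gene of the listed response, measured 67.5 and 77.3 FPKM before and 83.5 and 64.6 FPKM after. These are bulk samples, so fewer cells of a kind and less RNA per cell cannot be told apart.

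UHRF1 fell from 274 and 226 FPKM to 19.8 and 22.7 FPKM, into the range of the cHL libraries, and the pairs were far apart. This was an 11.3-fold difference (log2 -3.49 ± 0.91, adjusted p = 0.0186), kept in 8 of 12 refits without 1 library with a largest adjusted p of 0.0975. In the 4 Reh libraries fitted alone it gave adjusted p = 9.0e-06. HELLS fell from 68.2 and 54.6 FPKM to 18.5 and 16.1 FPKM, below every other library. The HELLS difference was 3.40-fold (log2 -1.76 ± 0.32, adjusted p = 0.00337) and was kept in all 12 refits. DNMT1 stood at 53.4 and 43.3 FPKM after treatment, overlapping untreated Reh, with a difference of -0.13 (95% interval -1.08 to 0.82, adjusted p = 0.897).

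The de novo enzymes moved in opposite directions with PMA. DNMT3A rose from 12.9 and 14.4 FPKM to 34.3 and 31.7 FPKM, its highest levels in the 12 libraries. This was a 2.32-fold difference (log2 1.22 ± 0.21, adjusted p = 0.00268). DNMT3B fell from 8.57 and 8.54 FPKM to 3.42 and 3.64 FPKM, between the cHL lines and the untreated controls. Its log2 difference was -1.08 ± 0.19 (adjusted p = 0.00319). Both calls were kept in all 12 refits without 1 library.

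In the TRIM28 route, ATF7IP fell from 34.1 and 25.5 FPKM to 15.8 and 11.7 FPKM, its lowest levels in the 12 libraries (log2 difference -1.06 ± 0.26, adjusted p = 0.0133). SETDB1 fell from 35.3 and 32.5 FPKM to 19.0 and 22.5 FPKM, within the range of the cHL libraries (-0.68 ± 0.22, adjusted p = 0.0398). The SETDB1 call was kept in 6 and the ATF7IP call in 10 of the 12 refits. TRIM28 stood at 147 and 182 FPKM after treatment, below both untreated libraries, but did not pass (-0.52, adjusted p = 0.255). MPHOSPH8 stood at 12.01 and 12.07 FPKM, above both untreated libraries, and did not pass in the fit of all libraries (1.20 ± 0.49, adjusted p = 0.0929), whereas the 4 Reh libraries alone gave adjusted p = 0.00103. MORC2 stood at 17.9 and 18.2 FPKM against 17.9 and 16.1 FPKM, a difference of 0.08 (95% interval -0.39 to 0.55, adjusted p = 0.853) whose sign turned under 75th percentile scaling and quantile normalisation.

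UHRF1 and HELLS, lower after PMA, were the members whose promoter windows, where one was found, held letters of the type bound by E2F factors, which drive genes of DNA replication. The windows below, the 250 bases before a transcript start on the gene's strand, were taken from RefSeq (GRCh38.p14) to show those letters beside DNMT3B, which also fell but whose window held none. ATF7IP and SETDB1 fell too, and none of their 6 and 2 windows held one, so 3 of the 5 members that fell lacked these letters. The motifs were chosen after the expression values were seen, and were TTTCCCGC, TTTCGCGC, TTTGCCGC and TTTGGCGC on both strands, shown in capitals as they read on the printed strand.
UHRF1 promoter, chr19:4909251-4909500, plus strand: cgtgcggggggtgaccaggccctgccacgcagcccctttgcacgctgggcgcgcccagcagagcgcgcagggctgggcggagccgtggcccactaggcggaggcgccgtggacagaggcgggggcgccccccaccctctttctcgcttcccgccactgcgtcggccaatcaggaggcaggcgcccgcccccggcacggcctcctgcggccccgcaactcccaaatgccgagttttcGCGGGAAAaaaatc
HELLS promoter, chr10:94545538-94545787, plus strand: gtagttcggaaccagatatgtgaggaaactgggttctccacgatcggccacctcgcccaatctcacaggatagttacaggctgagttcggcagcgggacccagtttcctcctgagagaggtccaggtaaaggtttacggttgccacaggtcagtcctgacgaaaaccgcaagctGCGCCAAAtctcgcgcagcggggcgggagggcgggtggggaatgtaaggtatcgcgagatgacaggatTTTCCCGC
DNMT3B promoter, chr20:32779602-32779851, plus strand: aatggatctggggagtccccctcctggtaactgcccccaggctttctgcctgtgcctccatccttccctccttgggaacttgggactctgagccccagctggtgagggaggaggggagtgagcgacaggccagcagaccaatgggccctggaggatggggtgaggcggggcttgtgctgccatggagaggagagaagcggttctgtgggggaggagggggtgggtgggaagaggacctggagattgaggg

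One of these motifs was present in 979 of the 35116 windows of this length in the RefSeq table (2.79%). Among the members it was present in 3 of 22 windows, namely 2 of the 3 UHRF1 windows and the single HELLS window. Windows were found for 9 of the 10 genes. A match describes letters in a window and is not evidence that a factor binds there, and the absence of a match says only that these letters are not in that window.

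Genes of replication and proliferation moved in the same comparisons. Of 16 such genes, 11 were lower and 0 higher in the cHL lines (median log2 difference -0.77, unadjusted p under 0.05 for 11 and 0), and 10 were lower and 0 higher after PMA (median -1.19, unadjusted p under 0.05 for 10 and 0). Shares over all genes tested were 25.8% lower and 29.6% higher in the cHL lines, or 28.3% and 31.9% at an unadjusted p under 0.05. After PMA they were 17.2% lower and 14.7% higher. The largest were CCNE2 (cyclin E2, -2.05), MCM4 (-1.68) and MCM5 (-1.62) in the cHL lines, the MCM proteins being parts of the replicative helicase. Of these, CCNE2 was not called in L1236 (-1.09, adjusted p = 0.0706) nor MCM5 in L428 (-1.07, adjusted p = 0.0506). With PMA they were CCNE2 (-2.78), E2F1 (-2.52) and MCM3 (-2.25). Summed FPKM of the list was 777 to 1590 in the cHL libraries, 1687 to 2257 in untreated controls and 825 to 997 in PMA-treated Reh. In KM-H2, 15 of the 16 genes were higher in library 0, with a median log2 difference of 0.94 between the libraries, against 9 in L1236 and 7 in L428. The part of these differences in the results for UHRF1, HELLS and the other members was not tested.

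KRAB zinc finger genes, whose products bring TRIM28 to repeats, were lower in the cHL lines for 6 and higher for 0 of the 9 listed genes tested (median -0.92, unadjusted p under 0.05 for 6 and 0). Shares over all genes tested were 25.8% lower and 29.6% higher, or 28.3% and 31.9% at an unadjusted p under 0.05. ZNF93, a repressor of LINE-1 elements, measured 0.0501 to 0.605 FPKM in the cHL libraries and 11.3 to 20.1 FPKM in untreated controls (log2 difference -3.61 ± 0.13, adjusted p = 1.0e-07). ZNF611 (-2.16) and ZNF91 (-1.51), the latter a repressor of SVA elements, were next. ZNF91 was lower in KM-H2 (-1.87) and L1236 (-2.50), whereas L428 gave -0.17 (adjusted p = 0.44), with 24.4 and 32.3 FPKM against 23.8 and 25.2 FPKM in Namalwa. With PMA none of the 9 passed limma's test in either direction, and 1 had an unadjusted p under 0.05, in the lower direction.

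Of 7 genes of HUSH and its partners, 3 were lower and 1 was higher in the cHL lines (median -0.48), against 25.8% and 29.6% of all genes tested. TASOR (listed as FAM208A), the core of the complex, was higher, with 16.3 to 37.0 FPKM in the cHL libraries and 11.2 to 12.9 FPKM in untreated controls (log2 difference 1.14 ± 0.15, adjusted p = 1.65e-04). SETDB2 (-1.74) and ATF7IP2 (-1.45), relatives of SETDB1 and ATF7IP rather than HUSH subunits, were lower. The counts and median of this list are therefore not a measure of the complex itself. With PMA, RESF1 (listed as KIAA1551) rose from 19.0 and 19.4 FPKM to 87.4 and 43.8 FPKM (1.64, adjusted p = 0.00309), and SETDB2 (-1.26) and FAM208B (-0.58) fell.

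Of 7 other H3K9 methyltransferases and HP1 proteins, which write and bind the mark, 3 were lower and 1 higher in the cHL lines (median -0.34). They were led by SUV39H2 (-1.10), CBX3 (-1.06) and EHMT1 (-0.90). For this list and the next, the shares over all genes tested were 25.8% lower and 29.6% higher in the cHL lines. With PMA these shares were 17.2% and 14.7%. In single lines SUV39H2 and EHMT1 were not called in KM-H2 (-0.42 and -0.34), nor CBX3 in L1236 (-0.58). With PMA only EHMT2 (G9a), an H3K9 dimethyltransferase, was called, falling from 28.5 and 34.0 FPKM to 7.43 and 9.55 FPKM (-1.77, adjusted p = 3.94e-04). This 1 call in 7 genes is close to the share of all genes called lower. Of 10 corepressors and histone chaperones associated with TRIM28, 5 were lower and 0 higher in the cHL lines (median -0.65, unadjusted p under 0.05 for 6 and 0), led by the demethylase KDM1A (-1.45), its cofactor RCOR1 (-1.05) and the chaperone subunit CHAF1A (-0.79). RCOR1 was not called in KM-H2 (-0.45, adjusted p = 0.0866), where 10.5 and 16.9 FPKM exceeded the 8.23 and 10.1 FPKM of Namalwa, the control mean resting on 36.4 and 37.7 FPKM in Reh, and CHAF1A was not called in L428 (-0.60, adjusted p = 0.0888). With PMA 3 were higher and 2 lower (median 0.43), among them RCOR1 (1.54), SIRT6 (1.33) and CHAF1A (-1.10).

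Of 11 tested partners, readers and erasers of DNA methylation, 6 were lower and 0 higher in the cHL lines (median -0.55, unadjusted p under 0.05 for 6 and 0). Shares over all genes tested were 25.8% lower and 29.6% higher there, and 17.2% and 14.7% with PMA. The largest were TET1 (-1.73), an oxidase of methylcytosine, the glycosylase TDG (-1.53) and the reader MBD1 (-0.81). TDG was lower in L1236 (-1.95) and L428 (-2.27) but not called in KM-H2 (-0.38, adjusted p = 0.212), where 32.3 and 32.4 FPKM lay within the control range of 31.1 to 51.2 FPKM. With PMA, USP7, a deubiquitinase that binds UHRF1 and DNMT1, rose from 13.01 and 10.2 FPKM to 118 and 79.6 FPKM (2.97 ± 0.45, adjusted p = 0.00141). UHRF2, the relative of UHRF1, fell (-1.36), as did TET1 (-0.64), so that 1 of the 11 was higher and 2 lower (median 0.19).

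**Figure D4:**
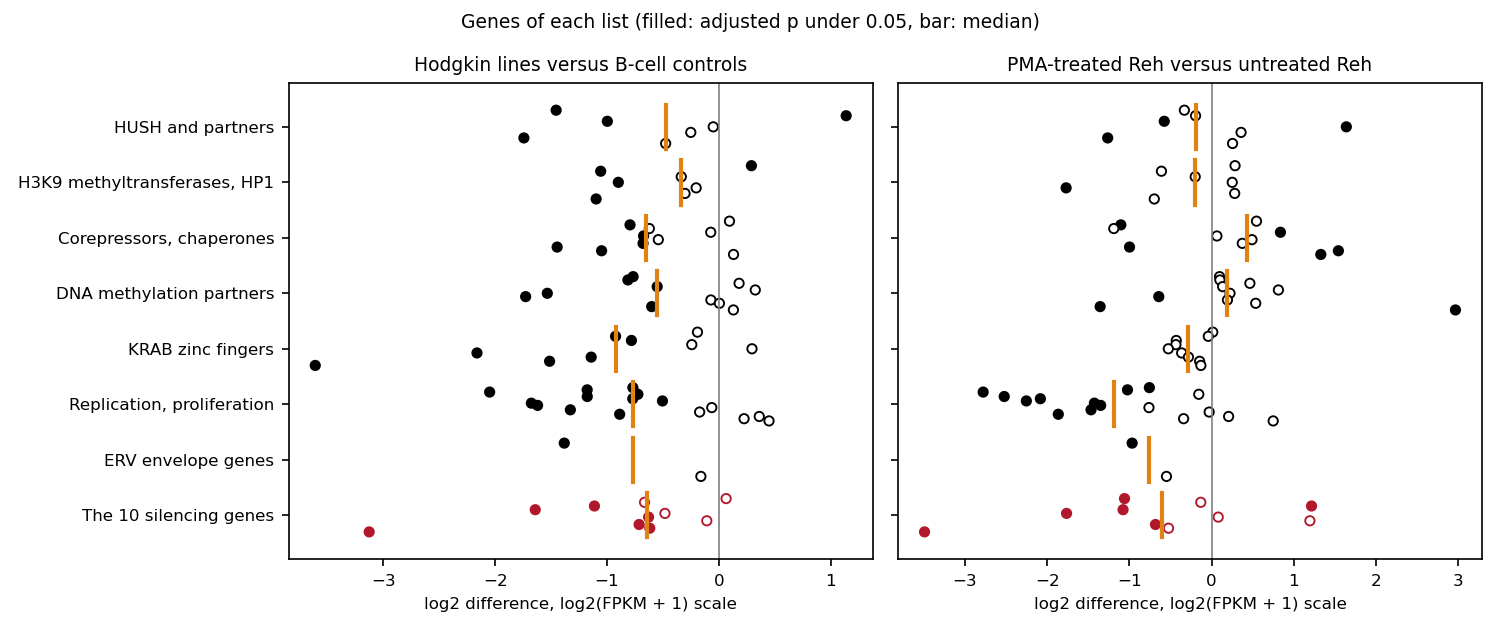
Log2 difference, on the log2(FPKM + 1) scale, of the tested genes of each listed gene group in the cHL lines against the untreated controls and in PMA-treated against untreated Reh, 1 point per gene, filled at adjusted p under 0.05, with a bar at each median and the 10 silencing genes in the last row. The medians of the replication and proliferation genes lie at -0.77 and -1.19, and those of the KRAB zinc finger genes at -0.92 and -0.28.

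Of 8 listed retroviral envelope genes, products of the repeats themselves, 6 were in the table and 2 were tested. ERV3-1 was the one called, lower in the cHL lines (-1.38) and after PMA (-0.97). It measured 0.476 and 1.48 FPKM in KM-H2 and 1.27 and 1.42 FPKM in L428, but 6.78 and 11.4 FPKM in L1236, within the range of 5.15 to 12.2 FPKM in untreated Namalwa and Reh.

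The genes whose levels followed each member most closely over the 12 libraries were named by Pearson correlation of log2(FPKM + 1). The libraries fall into 6 groups, so these values describe shared patterns among groups. DNMT3B was followed by DERL3 (r = 0.981), LHFPL2 (0.974) and MIR181A1HG (0.963), and DNMT3A by CDKN1A (0.971), BTRC (0.956) and FBXW4P1 (0.954). For MORC2 they were LRP6 (0.975), RTKN2 (0.969) and PTPN6 (0.957), and for MPHOSPH8 TRA2A (0.955), IFNAR1 (0.940) and ABR (0.935). TRIM28 was nearest to DEAF1 (0.939), C21orf2 (0.935) and NME4 (0.902), SETDB1 to RMND5A (0.923), BLNK (0.922) and TMEM52 (0.910), and ATF7IP to ZNF700 (0.964), RAD51AP1 (0.948) and CDK19 (0.928). DNMT1 was nearest to FAM189B (0.922), ADNP (0.919) and POGZ (0.906), UHRF1 to HMGB1 (0.926), KCNRG (0.925) and CBX2 (0.915), and HELLS to ZNF337-AS1 (0.953), HIST1H2BK (0.948) and RCCD1 (0.940). No member was among the 3 nearest genes of another.

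By GRCh37 (hg19), the build of the deposited values, in the GENCODE annotation used here, TRIM28 lies on chromosome 19 from 59055431 to 59062089, UHRF1 on chromosome 19 from 4903092 to 4962165 and DNMT1 on chromosome 19 from 10244018 to 10341962. DNMT3A lies on chromosome 2 from 25450724 to 25565459 and DNMT3B on chromosome 20 from 31350191 to 31397165. SETDB1 lies on chromosome 1 from 150898739 to 150937220, where it overlaps CERS2 on the opposite strand, ATF7IP on chromosome 12 from 14518610 to 14655865, HELLS on chromosome 10 from 96305086 to 96373662, MORC2 on chromosome 22 from 31321117 to 31364760 and MPHOSPH8 on chromosome 13 from 20207799 to 20247581. All levels refer to the whole gene, and DNMT1 also overlaps S1PR2, with which it could share reads.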

How the data were processed

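RNA was sequenced from 12 libraries of 5 human cell lines. The FPKM values were deposited by the authors as 1 table, made with TopHat alignment to hg19 and Cuffnorm 2.2.1 from stranded, ribosomal RNA-depleted total RNA. Illumina HiSeq and NextSeq instruments were used, and which library ran on which is not given in the sources used here. Cuffnorm rescales libraries to each other, so a few abundant small RNAs can shift a library's other values. Groups came from the labels, and column suffixes 0 and 1 could not be matched to the labels' replicate numbers.

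Values were analysed as log2(FPKM + 1), so fold changes are on that scale and understate changes of low genes. Genes at 1 FPKM or more in at least 2 libraries were tested with limma 3.58.1 in R 4.3.3 (moderated tests with an intensity trend, 6 groups, 6 residual degrees of freedom), with Benjamini-Hochberg adjustment over all genes tested, and called at adjusted p under 0.05. The rule for named genes took all 10 members, up to 3 called genes with the largest change per list and comparison, and the 3 genes nearest to each member. Members and lists were chosen with earlier results of these data known. The fit was tested on simulated data. Alternatives were other pseudocounts (0.1), filters, scalings and variance priors, a block on the column suffix, each library left out, each line as 1 value, the 4 Reh libraries alone, and, chosen after seeing the data, 1 library set of the cHL lines. Depth per library is unknown, so no counting intervals are given.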

Additional observations from a re-analysis of the deposited data

How the results depend on the processing

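Of the 1320 differences of single silencing genes recomputed under an alternative, 1212 kept direction and side of the threshold, 19 passed newly, 62 no longer passed and 27 changed sign, the last all for differences that were not called. Sign changes were, for PMA, MORC2 to -0.070 (75th percentile scaling) and -0.029 (quantile normalisation), for Namalwa against Reh, HELLS to -0.034 (quantile), with library 0 alone from the cHL lines, ATF7IP to -0.041 and MPHOSPH8 to 0.22 in these lines together and DNMT3A to 0.13 and MPHOSPH8 to 0.39 in KM-H2, and with library 1 alone, ATF7IP to 0.0039 in L1236 and HELLS to 0.022 and MORC2 to 0.023 in L428. With a log2 difference of 1 or more also required, calls over all genes were 3614 for the cHL lines together, 4456 for KM-H2, 4251 for L1236 and 4404 for L428, with 3 members for the cHL lines and 3 for L1236. With each line as 1 value 80 genes and 0 members passed (limma, unadjusted p under 0.05 for 1983 genes and 3 members). With library 0 alone, 4465 genes and 2 members differed among the cHL lines. The cause of these changes was not tested.

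Leaving out each library in turn gave 6716 to 8091 genes and 5 to 7 members for the cHL lines together, 5225 to 7092 genes and 2 to 6 members for KM-H2, 4466 to 7001 and 3 to 7 for L1236, 4817 to 7197 and 3 to 6 for L428, 2223 to 3956 and 1 to 2 for Namalwa against Reh, 2241 to 5097 and 3 to 7 for PMA, and 6191 to 7310 and 2 to 6 among the cHL lines. A lone library was assumed to vary like the other groups. For Namalwa against Reh the lowest counts came without Reh library 0 (2223) or library 1 (2319), and for PMA without any 1 of the 4 Reh libraries (2241 to 3017). Differences that changed sign ranged from -0.37 to 0.16 for MPHOSPH8 and -0.038 to 0.17 for ATF7IP in the cHL lines, -0.23 to 0.13 for DNMT3A and -1.20 to 0.39 for MPHOSPH8 in KM-H2, -0.61 to 0.0039 for ATF7IP in L1236, -0.11 to 0.045 for HELLS and -0.20 to 0.060 for MORC2 in L428, -0.17 to 0.0097 for SETDB1, -0.0016 to 0.76 for DNMT1 and -0.070 to 0.25 for HELLS in Namalwa, and -0.41 to 0.14 for DNMT1 with PMA.

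No label says that a library number marks a shared batch, so the block on it was fitted only as an alternative. Deviations of same-numbered libraries correlated at 0.30 to 0.68 between cHL lines, at 0.36 between Namalwa and Reh and at -0.045 to 0.19 between the other pairs of groups, and the small RNA share was higher in library 1 in 6 of 6 groups. With this replicate block 7 members were called for the cHL lines together (57.4% of all genes tested, in either direction), 5 for KM-H2 (49.4%), 7 for L1236 (47.7%), 7 for L428 (48.9%), 1 for Namalwa (26.7%), 6 for PMA (34.8%) and 4 among the cHL lines (53.9%). The added member in each cHL comparison was DNMT1, lower with adjusted p = 0.0022 for the lines together, 0.0049 for KM-H2, 0.013 for L1236 and 0.026 for L428.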

Other observations

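Between the untreated controls, Namalwa and Reh, the listed partners of the silencing genes differed in single members. FAM208B (TASOR2) was 3.05-fold higher in Namalwa (log2 difference 1.61 ± 0.18 (SE), limma adjusted p = 1.76e-04) and the methyl-CpG reader MBD2 2.03-fold higher (1.02, adjusted p = 0.0105). RCOR1, a partner of KDM1A, was 3.76-fold lower (-1.91, adjusted p = 2.13e-04), and CBX1, an HP1 protein, was lower by 0.59 on the log2 scale (adjusted p = 0.0328). Of 9 KRAB zinc finger genes tested, 2 were lower in Namalwa, ZNF649 (-1.65) and ZNF91 (-0.72), and 0 higher, with unadjusted p under 0.05 for 3 and 0. Shares over all genes tested were 14.7% lower and 10.3% higher, or 19.5% and 15.1% at an unadjusted p under 0.05. None of the 16 replication and proliferation genes passed limma's test in either direction, and 0 had an unadjusted p under 0.05.

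MBD2 differed in direction from line to line among the cHL lines. Against the mean of Namalwa and Reh it was lower in KM-H2 (log2 difference -1.38, adjusted p = 4.45e-04) and higher in L1236 (0.91, adjusted p = 0.00513) and L428 (1.01, adjusted p = 0.00288). In KM-H2 the histone deacetylase genes lower than in the controls were HDAC1 (-1.41, adjusted p = 0.00309) and HDAC2 (-1.27, adjusted p = 2.61e-04). HDAC2 was also lower in L1236 (-0.78, adjusted p = 0.00475) and gave 0.02 in L428 (adjusted p = 0.95), while HDAC1 gave 0.54 in L1236 (adjusted p = 0.155) and -0.76 in L428 (adjusted p = 0.0541). KDM1A was lower in each line, by 1.03 in KM-H2, 1.02 in L1236 and 2.28 in L428 on the log2 scale. These comparisons share their control libraries.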
